A study of Homo sapiens with 2 samples.

Results

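The cancer-testis antigen families are groups of genes, most of them on the X chromosome, that are normally active in the germ line of the testis and often become active again in tumours. The members described here are all genes whose symbol begins with MAGEA to MAGEH, GAGE, XAGE, PAGE, SSX, CTAG or CSAG followed by a digit, in both deposited expression tables. Of 90 table rows that matched, 4 with a pseudogene ending (SSX2IP, MAGEB6P1, MAGEA13P and MAGEA7P) were dropped by the rule, of which SSX2IP is an ordinary gene whose symbol ends the same way. This left 86 genes of 51640 symbols, 85 of them on the X chromosome and 1, MAGEF1, on chromosome 3. By identifier, 67 were matched in the GENCODE v29 annotation, 61 of them as protein-coding. The other matched members, CSAG4, MAGEA5, SSX6, SSX8, SSX9 and SSX10, are annotated there as pseudogenes. The samples were the PJ and PF libraries of HCT116, a human cell line established from a colorectal carcinoma. Both carry the same labels, colon cancer cells with no treatment, grown to high confluence in DMEM with fetal bovine serum and antibiotics, and the series describes them as biological replicates. What the letters PJ and PF stand for is not given, and the normal colon samples that the study set against them are not analysed here. The 2 libraries belong to 1 group, so a difference between PJ and PF is a difference between replicates of a single cell line, has no p-value, and cannot be tied to any condition.

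MAGE proteins share a MAGE homology domain through which many of them bind a RING-type ubiquitin ligase and change which proteins it marks. Type I MAGE genes (the MAGEA, MAGEB and MAGEC subfamilies) are the classical tumour antigens, silent in most adult tissues outside the germ line. Type II MAGE genes (MAGED to MAGEH) are active in many normal tissues, so the name cancer-testis antigen does not apply to them. In normal somatic cells the promoters of type I genes carry DNA methylation, and drugs that remove it are a standard way to switch these genes on in culture. The GAGE, XAGE, PAGE, SSX, CTAG and CSAG genes are further X-linked families with the same germ-line pattern, several of them present as tandem arrays of nearly identical copies.

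A promoter, from 250 bases before to 50 after an annotated start, was available from RefSeq (build GRCh38.p14) for 61 of the 86 members, 80 promoters in all. The 6 promoters below are shown because they belong to genes with different levels in the libraries: MAGEA9 and MAGEA12 were high in PJ and under 1 FPKM in PF, MAGEA2B, MAGEA3 and MAGEB2 were high in both, and MAGEA8 was under 1 FPKM in both. They run 5′ to 3′ on the gene's strand, with capitals on the letters GGATGTGA, a stretch picked after the promoters had been read. The windows are chrX:149781680-149781979, chrX:152733507-152733806, chrX:152714378-152714677, chrX:152698544-152698843, chrX:30215313-30215612 and chrX:149880933-149881232, all on the plus strand, in the order MAGEA9, MAGEA12, MAGEA2B, MAGEA3, MAGEB2 and MAGEA8.
MAGEA9: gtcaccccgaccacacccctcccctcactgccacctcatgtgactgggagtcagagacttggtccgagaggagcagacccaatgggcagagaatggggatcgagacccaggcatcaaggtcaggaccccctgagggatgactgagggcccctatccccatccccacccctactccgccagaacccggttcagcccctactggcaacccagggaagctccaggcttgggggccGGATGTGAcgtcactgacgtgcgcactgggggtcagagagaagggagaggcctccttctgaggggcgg
MAGEA12: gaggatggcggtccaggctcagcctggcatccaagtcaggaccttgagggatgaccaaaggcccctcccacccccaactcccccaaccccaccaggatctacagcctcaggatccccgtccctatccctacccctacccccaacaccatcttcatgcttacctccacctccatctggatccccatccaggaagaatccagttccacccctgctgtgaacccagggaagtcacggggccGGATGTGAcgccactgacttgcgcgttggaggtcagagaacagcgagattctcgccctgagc
MAGEA2B: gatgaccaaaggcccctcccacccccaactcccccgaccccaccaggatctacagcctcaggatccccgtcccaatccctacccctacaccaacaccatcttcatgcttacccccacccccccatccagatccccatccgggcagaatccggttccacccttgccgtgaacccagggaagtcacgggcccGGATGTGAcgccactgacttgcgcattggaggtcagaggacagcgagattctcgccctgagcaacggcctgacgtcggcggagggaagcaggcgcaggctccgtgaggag
MAGEA3: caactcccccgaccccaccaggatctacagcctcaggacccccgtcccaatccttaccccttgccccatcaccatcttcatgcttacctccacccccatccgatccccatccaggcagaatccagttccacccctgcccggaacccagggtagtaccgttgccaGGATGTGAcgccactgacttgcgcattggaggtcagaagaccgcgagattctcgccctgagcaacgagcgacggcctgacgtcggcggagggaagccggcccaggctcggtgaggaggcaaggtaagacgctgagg
MAGEB2: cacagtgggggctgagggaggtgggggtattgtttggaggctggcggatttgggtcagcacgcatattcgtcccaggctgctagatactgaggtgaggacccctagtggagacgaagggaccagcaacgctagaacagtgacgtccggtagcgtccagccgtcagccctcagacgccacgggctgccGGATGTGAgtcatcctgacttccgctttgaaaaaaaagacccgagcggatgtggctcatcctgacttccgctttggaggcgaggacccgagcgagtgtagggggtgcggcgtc
MAGEA8: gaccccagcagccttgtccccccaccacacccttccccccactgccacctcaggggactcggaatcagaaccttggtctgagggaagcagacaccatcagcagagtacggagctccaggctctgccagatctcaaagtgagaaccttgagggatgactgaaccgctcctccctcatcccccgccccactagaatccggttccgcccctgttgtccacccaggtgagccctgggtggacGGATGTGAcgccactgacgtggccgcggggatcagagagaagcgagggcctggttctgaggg

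The stretch GGATGTGA, or its reverse complement TCACATCC, stood in all 16 promoters of the 10 MAGEA genes with a promoter available here. It also stood in both available CSAG promoters (CSAG1 and CSAG3) and in 2 of 11 MAGEB promoters. MAGEA1, MAGEA5 and MAGEA10, each under 1 FPKM in both libraries, had no promoter available and were not examined. Not all of these promoters are separate sites. MAGEA4, MAGEA12 and MAGEA2 have several starts each, and the windows of MAGEA12, like those of MAGEA2, overlap over the same site. The MAGEA9 and MAGEA9B windows are identical, and the MAGEA2 window at chrX:152753793-152754092 has the same 300 bases as that of MAGEA2B. The CSAG1 window overlaps those of MAGEA12, and the CSAG3 window overlaps those of MAGEA2. The stretch stood in 0 promoters of the MAGEC, MAGED, GAGE, XAGE, PAGE and SSX genes and in 1.16% of all 35116 promoters of the same length. With a C before it (CGGATGTGA, or TCACATCCG on the other strand), which places a CpG dinucleotide at its edge, it stood in 14 of the 16 MAGEA promoters and in 0.222% of all promoters. The exceptions were MAGEA3 and MAGEA6, whose promoters were identical over 300 bases and have an A in front of it. The shorter letters CGGAA or CGGAT, on either strand, the core that ETS family transcription factors are known to prefer, stood in all 16 MAGEA promoters and in 44.5% of all promoters. CGGAT overlaps the first letters of CGGATGTGA.

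Genes with the stretch were found at high and at low levels. Among type I MAGE genes at 1 FPKM or more in PJ it was present in 10 of 12 promoters (8 of 9 genes), MAGEB1 being the gene without it. Among those under 1 FPKM in both libraries it was present in 8 of 18 promoters (4 of 13 genes). These sets also differ in subfamily, so they give no link to level. All 16 MAGEA promoters examined carried the stretch whatever the level, beside 2 of 11 MAGEB and 0 of 3 MAGEC promoters. The 4 genes with the stretch and a level under 1 FPKM in both were MAGEA8, MAGEA4, MAGEA11 and MAGEB16. CpG dinucleotides numbered 10 in the printed MAGEA9 window, 9 in MAGEA12, 17 in MAGEA2B, 19 in MAGEA3, 21 in MAGEB2 and 12 in MAGEA8, beside a median of 14 over all promoters. A match of letters is a description, not evidence of binding, and methylation was not measured in these libraries.

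Levels are FPKM (fragments assigned to a gene, scaled by transcript length and by the library total) as the authors deposited them, a scale that is per length and so allows genes to be compared. A gene counts as expressed when both libraries reach 1 FPKM for it. The range in brackets after a value is the 95% range deposited with it, which covers the estimate within that library and not the variation between cultures. Of the 86 members, 20 (23.3%) were expressed in both libraries, beside 27.9% of all symbols and 57.3% of protein-coding symbols. A further 6 reached 1 FPKM in PJ alone and 11 in PF alone, 49 stayed under it in both, and 8 of those were listed at 0 in both. The median member lay at 0.344 FPKM in PJ and 0.314 FPKM in PF. The share of members expressed was thus near that of all symbols and below that of protein-coding symbols, while a small set, 9 members, reached 10 FPKM in both libraries. The 20 expressed members and the 9 above 10 FPKM include GAGE12B, whose estimate is not usable for a reason given with the GAGE genes; without it 19 members were expressed. In bulk libraries fewer cells with a transcript and less transcript per cell cannot be told apart.

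**Figure D1:**
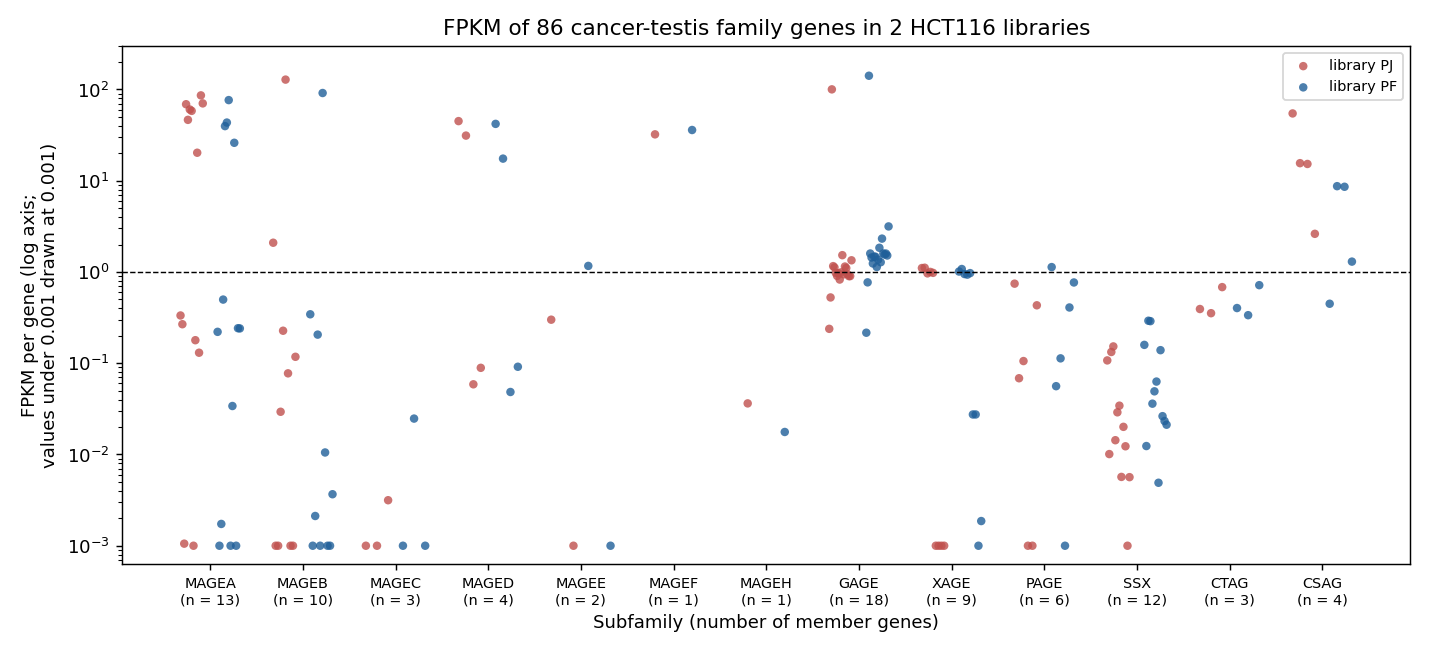
FPKM of each of the 86 member genes (1 point per gene and library, log axis) by subfamily, library PJ on the left of each pair and library PF on the right; values under 0.001 FPKM are drawn at 0.001 and the dashed line marks 1 FPKM. MAGEA points fall into a group above 10 FPKM and a group below 1 FPKM, and 7 MAGEA genes stand in the upper group in PJ and 4 in PF.

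Near-identical copies share most of their reads, so their values within a group are uncertain and the sum of a group is the safer quantity. Counting each such group once gave 55 units, 12 of them with several copies that together hold 43 members, and 10 of the 55 were expressed in both libraries. The share of 50-base words of a member's longest transcript found in no other GENCODE v29 gene measures how far its reads can be its own. Over the 77 members with a transcript the median share was 82.4%, with 22 members under 10% and 34 over 90%. MAGEB2 stood at 100%, MAGEA12 at 91.2% and CSAG1 at 90.5%. MAGEA9 stood at 5.69% and MAGEA9B at 6.01%, but 98.8% of the words of each were found in no gene outside the pair. MAGEA3 stood at 43.8% alone and at 91.3% once MAGEA6 was allowed, and MAGEA2 and MAGEA2B stood at 0% alone and at 91.1% and 90.7% as a pair.

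**Figure D2:**
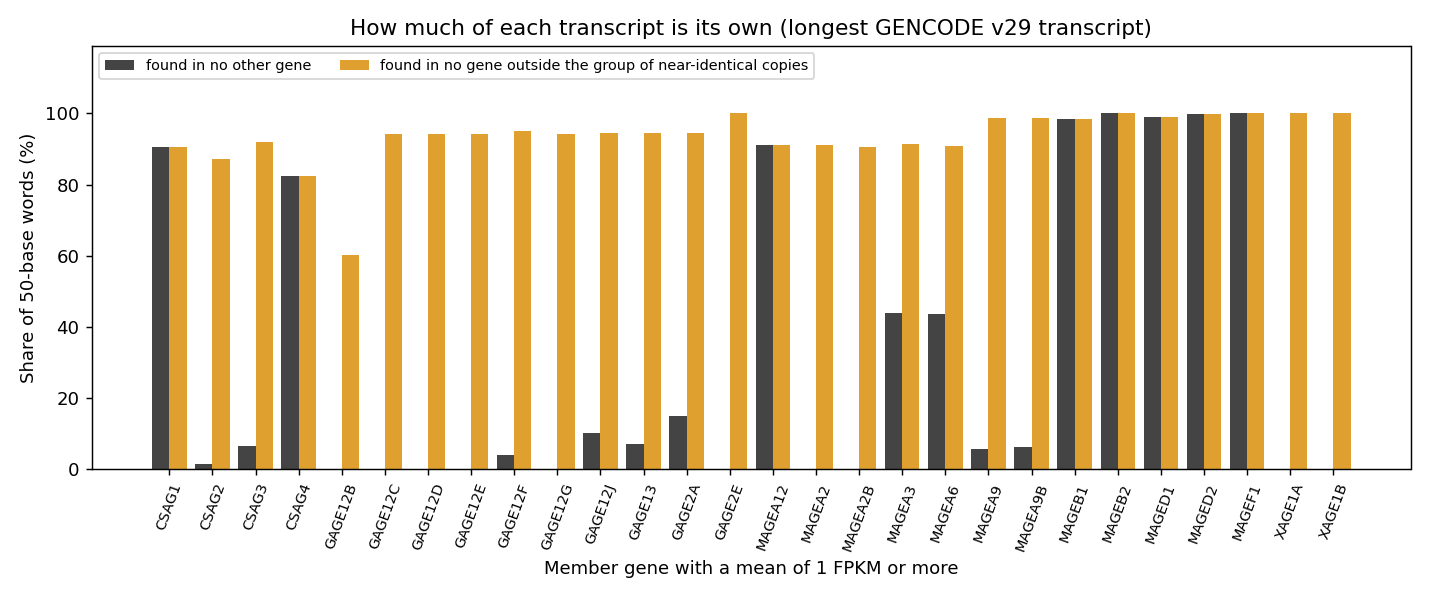
Share of 50-base words (%) of each transcript found in no other gene (dark bars) and in no gene outside its group of near-identical copies (light bars), for members whose mean was at least 1 FPKM and that had a GENCODE v29 transcript. MAGEB2, MAGEB1, MAGEA12, CSAG1, MAGED1, MAGED2 and MAGEF1 are over 90% alone, whereas MAGEA2, MAGEA2B, MAGEA9, MAGEA9B and the XAGE1 copies pass 90% only as groups.

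Type I MAGE genes contributed 5 of 26 members expressed in both libraries: MAGEB2, MAGEA3, MAGEA6, MAGEA2 and MAGEA2B. A further 4, MAGEA9, MAGEA9B, MAGEA12 and MAGEB1, reached 1 FPKM in PJ alone, and 17 were under 1 FPKM in both. The FPKM of the 26 genes summed to 543 in PJ and 279 in PF. MAGEB2 (ENSG00000099399.5, hg19 chrX:30233677-30238206), whose protein binds RNA and acts in the stress response of germ cells, was the highest type I gene in each library. It stood at 128.3 FPKM in PJ (124 to 133.3) and 91.5 FPKM in PF (89.2 to 95.4), a mean of 109.9 ± 26.0 FPKM (SD, n = 2). The deposited ranges did not overlap, PJ being the higher, and the log2 ratio of PJ over PF, computed as log2((PJ + 1)/(PF + 1)), was 0.48. MAGEB2 ranked 1059 in PJ and 1318 in PF among all symbols.

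MAGEA3 and MAGEA6 encode near-identical proteins, known to bind the ligase TRIM28 and to direct it against the energy sensor AMPK; their coding sequences matched at 98.1% of positions. MAGEA3 (ENSG00000221867.4, hg19 chrX:151934652-151938240) was at 58.3 FPKM in PJ (55.9 to 61.0) and 76.5 FPKM in PF (74.2 to 79.8), a log2 ratio of -0.39. MAGEA6 (ENSG00000197172.6, hg19 chrX:151867214-151870825) was at 20.3 FPKM in PJ (18.6 to 21.9) and 26.0 FPKM in PF (24.2 to 27.9), a log2 ratio of -0.35. As a pair they summed to 78.6 FPKM in PJ and 102.5 FPKM in PF, so they were abundant in both libraries and lower in PJ, with ranges that did not overlap. MAGEA2 and MAGEA2B, whose coding sequences were identical, encode a TRIM28 partner described as an inhibitor of p53. MAGEA2 (ENSG00000184750.11, hg19 chrX:151918387-151922364) was at 46.5 FPKM in PJ (44.3 to 49.0) and 39.7 FPKM in PF (37.6 to 41.9). MAGEA2B (ENSG00000183305.9, hg19 chrX:151883082-151887096) was at 60.3 FPKM in PJ (55.1 to 61.9) and 43.4 FPKM in PF (41.2 to 45.5). Their sum was 106.8 FPKM in PJ and 83.1 FPKM in PF, a log2 ratio of 0.36, beside 0.22 for the median symbol tested.

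The widest differences between the libraries were in MAGEA9, MAGEA9B, MAGEA12 and CSAG1. Of the 33 members whose mean was at least 1 FPKM, 5 stood 2-fold or more above PF in PJ (a log2 ratio of 1 or more), beside 10.4% of the 15736 symbols tested, and 0 stood 2-fold or more below it, beside 5.22%. The median log2 ratio was -0.17 over the 33 members and 0.22 over all 15736 symbols. Dividing PJ by the median ratio of the libraries, 1.19, left both counts at 5 and 0, beside 6.29% and 7.14% of symbols.

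MAGEA9 (ENSG00000166008.5, hg19 chrX:148863584-148869397) was at 86.2 FPKM in PJ (82.3 to 90.5) and 0.242 FPKM in PF (0.0769 to 0.521). The ratio was 356, with 158 between the facing ends of the deposited ranges, and the log2 ratio of 6.13 ranked it 21 of 15736 symbols, and 6 of the 13214 whose estimates lay within their own ranges. MAGEA9B (ENSG00000123584.7, hg19 chrX:148663309-148669116), an identical copy by coding sequence and by its 300-base promoter, was at 70.4 FPKM in PJ (68.3 to 73.5) and 0.241 FPKM in PF (0.126 to 0.355). As a pair they summed to 157 FPKM in PJ and 0.482 FPKM in PF, a 324-fold difference. In PJ the pair was thus more abundant than MAGEB2, the highest single gene, while in PF it lay under the threshold.

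MAGEA12 (ENSG00000213401.4, hg19 chrX:151899293-151903184) was at 68.9 FPKM in PJ (66.6 to 72.0) and 0.498 FPKM in PF (0.314 to 0.683), a ratio of 138 with 97.5 between the facing ends. Its log2 ratio was 5.54. It is a close relative of MAGEA3 and MAGEA2, with 92.4% and 93.2% of coding positions shared with MAGEA3 and MAGEA2B, yet those genes were abundant in both libraries. CSAG1 (ENSG00000198930.8, hg19 chrX:151903228-151909518), which encodes a protein with a role at the centrosome, was at 54.6 FPKM in PJ (50.7 to 58.6) and 0.449 FPKM in PF (0.122 to 0.777). Its ratio was 122, with 65.3 between the facing ends, and its log2 ratio was 5.26. MAGEA12 and CSAG1 therefore stood apart in the same direction and to a like degree.

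MAGEA12 and CSAG1 are also neighbours. On hg19, 44 bases separate their spans, with CSAG1 at the higher coordinates. In RefSeq on GRCh38.p14 the genes run away from each other on opposite strands from starts 36 bases apart. There CSAG1 lies on the side of lower coordinates, so the order is reversed between the builds. The promoter windows of these starts share 135 bases, among them the stretch printed in capitals. Short gaps recur nearby on hg19, with 81 bases between MAGEA2 and CSAG2 and 44 between CSAG3 and MAGEA2B. In RefSeq on GRCh38.p14 it is the CSAG3 window that overlaps those of MAGEA2, so the symbols of these copies pair differently in the builds. CSAG2 (ENSG00000184324.11, hg19 chrX:151922445-151928738) and CSAG3 (ENSG00000197463.8, hg19 chrX:151876743-151883038), copies of a gene first described in cells resistant to taxol, agreed at 99.7% of coding positions. CSAG2 was at 15.6 FPKM in PJ and 8.72 FPKM in PF, and CSAG3 at 15.3 FPKM in PJ and 8.58 FPKM in PF. Their sum of 30.8 FPKM in PJ and 17.3 FPKM in PF gave a log2 ratio of 0.80. CSAG4 (ENSG00000242599.3, hg19 chrX:151895976-151903136), annotated as a transcribed pseudogene, overlaps MAGEA12, and was at 2.62 FPKM in PJ (1.64 to 3.11) and 1.30 FPKM in PF (0.124 to 1.40). Its span covers nearly all of MAGEA12. Whether reads were assigned by strand is not given in the sources used here, so reads of the 2 genes cannot be told apart where their transcripts overlap. Of the 50-base words of the longest transcripts, 91.2% for MAGEA12 and 82.4% for CSAG4 were found in no other gene on either strand.

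The cluster thus held genes with wide and with narrow differences side by side. On hg19, MAGEA6, CSAG3, MAGEA2B, CSAG4, MAGEA12, CSAG1, MAGEA2, CSAG2 and MAGEA3 follow each other in that order, and 7 of these 9 were expressed in both libraries, the exceptions being MAGEA12 and CSAG1 in the middle. MAGEA8, the nearest MAGEA gene beyond MAGEA9, was at 0.130 FPKM in PJ and listed at 0 in PF, and MAGEA11, between the MAGEA9 copies, was at 0.00105 FPKM in PJ and 0.00173 FPKM in PF. Around all members whose mean reached 1 FPKM, 51 other genes began within 100 kb, and the mean of 12 of them reached it too. Of those 12 neighbours, 1 was at least 2-fold higher in PJ, the pseudogene HSPB1P2 at 24.4 FPKM in PJ and 11.7 FPKM in PF, and 0 were at least 2-fold lower, beside 10.4% and 5.22% of all symbols tested. Both estimates of HSPB1P2 lie above their deposited ranges (14.0 to 18.3 in PJ and 6.14 to 9.19 in PF). Beside the MAGEA6 to MAGEA3 cluster, the sterol synthesis gene NSDHL was at 29.1 FPKM in PJ and 16.0 FPKM in PF, the centrin gene CETN2 at 19.2 FPKM in PJ and 15.8 FPKM in PF, and the GABA receptor subunit gene GABRQ at 3.52 FPKM in PJ and 3.02 FPKM in PF. Beside the MAGEA9 copies, TMEM185A was at 7.68 FPKM in PJ and 5.92 FPKM in PF, its pseudogene TMEM185AP1 at 3.68 FPKM in PJ and 2.60 FPKM in PF, and HSFX1 at 0.162 FPKM in PJ and 0.0568 FPKM in PF. The neighbours with a level over the threshold were on in both libraries, as the plot of both loci shows. Of the other neighbours over it, CXorf40A was at 7.12 FPKM in PJ and 3.28 FPKM in PF, AF011889.5 at 4.43 FPKM in PJ and 2.52 FPKM in PF, and IDSP1 at 2.39 FPKM in PJ and 1.64 FPKM in PF. CCDC22 was at 6.95 FPKM in PJ and 3.35 FPKM in PF, VDAC1P2 at 16.8 FPKM in PJ and 16.9 FPKM in PF, again above both deposited ranges, and IPO7P1 at 2.94 FPKM in PJ and 2.69 FPKM in PF.

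**Figure D3:**
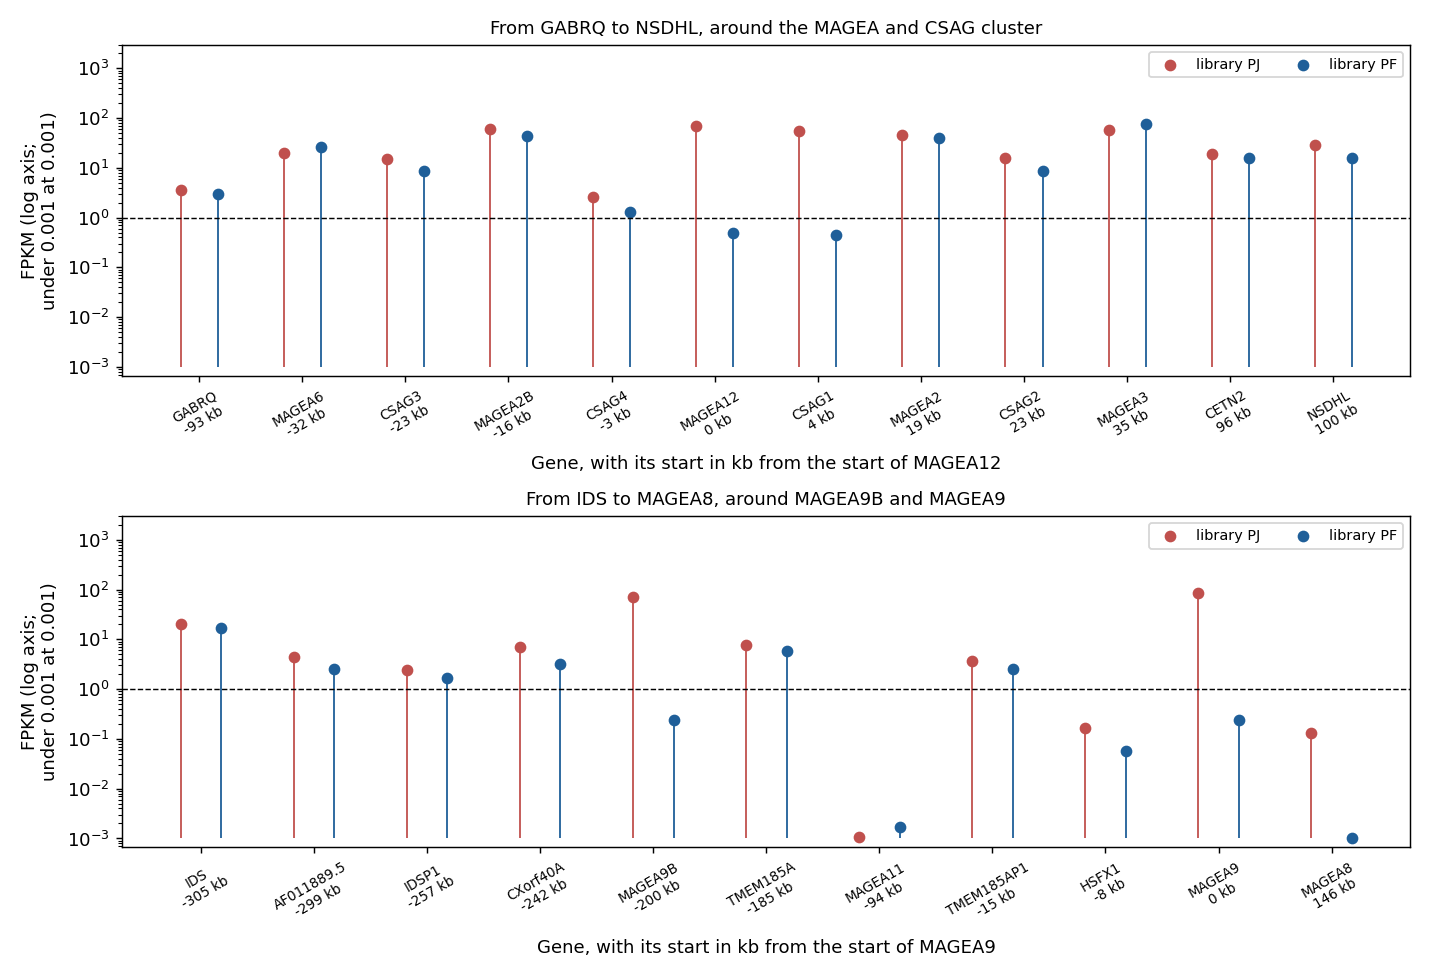
FPKM (log axis, values under 0.001 drawn at 0.001) of genes in chromosomal order around the MAGEA and CSAG cluster (top) and around MAGEA9B and MAGEA9 (bottom), library PJ left and library PF right in each pair, with each gene's start in kb from MAGEA12 or MAGEA9; members, protein-coding genes matched in GENCODE v29 and other genes with a mean of at least 1 FPKM are drawn. The dashed line marks 1 FPKM, and MAGEA12, CSAG1, MAGEA9B and MAGEA9 cross it in PJ and not in PF while their neighbours over it in PJ are over it in PF too.

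MAGEB1 (ENSG00000214107.3, hg19 chrX:30261847-30270155), a close relative of MAGEB2 with 74.3% of coding positions shared, was at 2.09 FPKM in PJ (1.72 to 2.46) and 0.344 FPKM in PF (0.197 to 0.495). This is a ratio of 6.09, with 3.48 between the facing ends, and a log2 ratio of 1.20 that ranked 1031 of 15736, a difference of a size that many other genes showed. Its neighbour MAGEB4, whose annotated span overlaps it, was listed at 0 in both. Together MAGEA9, MAGEA9B and MAGEA12 carried 41.6% of the type I FPKM in PJ and 0.352% in PF. The remaining 17 type I genes had little signal. MAGEA1, the founding member of the family, was at 0.334 FPKM in PJ and 0.221 FPKM in PF. MAGEA4, MAGEB4, MAGEB5, MAGEB10 and MAGEC1 were listed at 0 in both libraries, with an upper end of 0.260 FPKM in PJ and 0.249 FPKM in PF for MAGEA4. MAGEC2, the highest of its subfamily by mean, was listed at 0 in PJ and at 0.0247 FPKM in PF. Coding regions in a single exon, the mark of retrogene descent in this family, were found in 11 of 12 MAGEA genes, 9 of 10 MAGEB genes and 1 of 3 MAGEC genes, so expressed and silent type I genes alike had this structure.

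**Figure D4:**
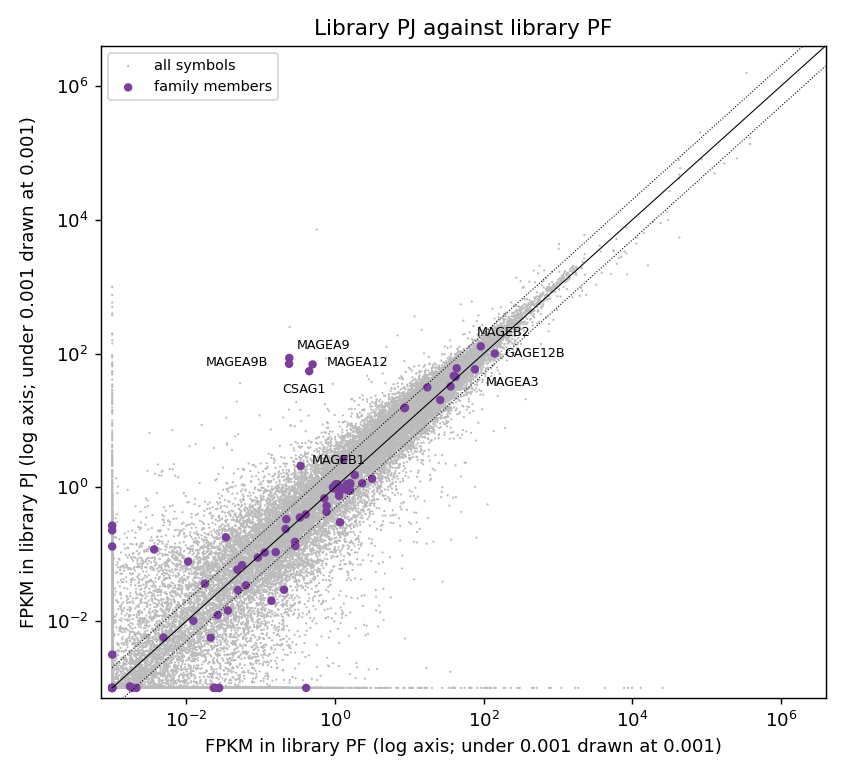
FPKM in library PJ (vertical, log axis) against library PF (horizontal, log axis) for all symbols (grey) and for the 86 members (purple), values under 0.001 drawn at 0.001; the solid line marks equality and the dotted lines a 2-fold ratio. MAGEA9, MAGEA9B, MAGEA12 and CSAG1 stand together above the cloud at 54.6 to 86.2 FPKM in PJ and 0.241 to 0.498 FPKM in PF.

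By the rule for likeness, the 3 symbols with a log2 ratio closest to that of MAGEA9 were RNU6-23, AC020900.2 and TAF9P3, at 69.2, 70.2 and 65.1 FPKM in PJ and all listed at 0 in PF. The first and last of these had estimates outside their own deposited range, so the likeness, taken over 2 libraries, says little about them.

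Type II MAGE genes contributed 3 of 8 members expressed in both libraries. MAGED1 (ENSG00000179222.12, hg19 chrX:51546103-51645453), an adaptor of the neurotrophin receptor p75, was at 45.0 FPKM in PJ (43.9 to 47.1) and 42.0 FPKM in PF (40.1 to 43.8), a mean of 43.5 ± 2.14 FPKM (SD, n = 2). MAGED2 (ENSG00000102316.11, hg19 chrX:54834032-54842445), a gene in which mutation causes a transient antenatal form of Bartter syndrome, was at 31.2 FPKM in PJ (29.7 to 32.8) and 17.5 FPKM in PF (16.4 to 18.5). MAGEF1 (ENSG00000177383.3, hg19 chr3:184428156-184429836), a partner of the ligase NSMCE1, was at 32.2 FPKM in PJ and 36.0 FPKM in PF, both above the upper ends of their deposited ranges (30.8 and 33.6). The log2 ratios of 0.10, 0.80 and -0.15 for MAGED1, MAGED2 and MAGEF1 were all short of a 2-fold difference. MAGEE1, a dystrobrevin-binding member, was at 0.300 FPKM in PJ (0.216 to 0.382) and 1.17 FPKM in PF (0.966 to 1.36). It was 3.88-fold higher in PF by plain FPKM, with ranges that did not overlap. Its mean of 0.733 FPKM left it out of the 2-fold counts, and its log2 ratio was -0.74. MAGED4 and MAGED4B summed to 0.148 FPKM in PJ and 0.140 FPKM in PF, MAGEH1 was at 0.0363 FPKM in PJ and 0.0176 FPKM in PF, and MAGEE2 was listed at 0 in both. Unlike most type I genes, the MAGED genes had 11 to 13 coding exons, but the other type II genes, MAGEE1, MAGEE2, MAGEF1 and MAGEH1, had 1 each.

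GAGE genes encode small disordered proteins of germ cells and lie in a tandem array on the X chromosome. Their FPKM summed to 117 in PJ and 167 in PF, but GAGE12B alone made up 85.9% of the sum in PJ and 84.7% in PF. GAGE12B (ENSG00000236737.1, hg19 chrX:49294472-49294588) is annotated with a span of 117 bases, and its 100.3 FPKM in PJ and 141.4 FPKM in PF lie far above its own deposited upper ends of 1.75 and 1.69, so its level is not usable. Without it the other 17 GAGE genes summed to 16.5 FPKM in PJ and 25.6 FPKM in PF, spread over a range of 0.238 to 1.53 FPKM in PJ and 0.216 to 3.16 FPKM in PF. Among them, 6 reached 1 FPKM in each library (GAGE4, GAGE2A, GAGE12J, GAGE2B, GAGE12C and GAGE12D) and 9 in PF alone (GAGE12E, GAGE12F, GAGE12G, GAGE12H, GAGE12I, GAGE13, GAGE2C, GAGE2D and GAGE2E), most of them close to the threshold. GAGE4, whose span lies inside GAGE1, had the highest mean, at 1.34 FPKM in PJ (0.456 to 2.29) and 3.16 FPKM in PF (1.76 to 4.64), with overlapping ranges. GAGE2A was at 1.15 FPKM in PJ and 2.32 FPKM in PF, and GAGE12J at 1.53 FPKM in PJ and 1.84 FPKM in PF. The coding sequences of GAGE2A and GAGE12J agreed at 97.4% of positions, so the split of the signal among the copies is uncertain.

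The other X-linked families were low. The XAGE1 copies, XAGE1A to XAGE1E, each lay near the threshold, at 0.965 to 1.11 FPKM in PJ and 0.935 to 1.08 FPKM in PF, and summed to 5.16 FPKM in PJ and 4.94 FPKM in PF. PAGE1 led its family at 0.745 FPKM in PJ and 1.13 FPKM in PF. CTAG1A and CTAG1B, the copies that encode the vaccine target NY-ESO-1, were at 0.393 and 0.353 FPKM in PJ and at 0.402 and 0.336 FPKM in PF. CTAG2 was at 0.682 FPKM in PJ and 0.717 FPKM in PF, and ranges overlapped for all 3 CTAG genes. The 12 SSX genes, some of which are the fusion partners of SS18 in synovial sarcoma, were all under 1 FPKM, with a highest value of 0.153 FPKM in PJ and 0.292 FPKM in PF. For every XAGE, PAGE, SSX and CTAG gene the deposited ranges of the libraries overlapped.

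By level, neighbours in the order of members were often not separable. In PJ the order ran MAGEB2, then MAGEA9, then MAGEA9B and MAGEA12 with overlapping ranges, then MAGEA2B, MAGEA3 and CSAG1, each overlapping the next, then MAGEA2 and MAGED1, then MAGEF1 and MAGED2, and then MAGEA6. In PF it ran MAGEB2, then MAGEA3, then MAGEA2B, MAGED1 and MAGEA2, each overlapping the next, then MAGEF1, MAGEA6 and MAGED2, with the unusable GAGE12B left out of both orders.

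Genes that act with MAGE proteins were measured as lists. Of 6 partner ligases, 4 were expressed in both libraries, beside 27.9% of all symbols and 57.3% of protein-coding symbols. Of these 4, which were also those whose mean reached 1 FPKM, 3 were at least 2-fold higher in PJ, beside 10.4% of all symbols tested. The log2 ratios of the 3 were 1.42 for TRIM27, 1.15 for PJA1 and 1.12 for NSMCE1, beside 0.22 for the median symbol tested. List counts were not recomputed with the median ratio of 1.19 divided out. Dividing it out lowers every log2 ratio, and those of PJA1 and NSMCE1 were near 1. TRIM28, the partner of MAGEA3, MAGEA6 and MAGEA2, was at 566 FPKM in PJ and 512 FPKM in PF. NSMCE1 was at 64.4 FPKM in PJ and 29.1 FPKM in PF, both above their deposited ranges, TRIM27 at 36.3 FPKM in PJ and 13.0 FPKM in PF, and TRIM31, the lowest by mean, at 0.277 FPKM in PJ and 0.139 FPKM in PF. LNX1 was at 0.110 FPKM in PJ and 1.02 FPKM in PF. All 6 listed genes of the SMC5/6 complex, a chromosome maintenance complex whose NSMCE3 subunit is the ancestral MAGE protein, were expressed, 2 of them at least 2-fold higher in PJ, beside the same 10.4%. These were NSMCE1, already counted among the ligases, and NDNL2, the older symbol of NSMCE3, whose log2 ratio of 1.05 was also near 1. NSMCE4A was at 84.1 FPKM in PJ and 60.4 FPKM in PF, NSMCE2 at 33.9 FPKM in PJ and 42.4 FPKM in PF, and NDNL2 at 17.3 FPKM in PJ and 7.84 FPKM in PF. NDNL2 carries the status LOWDATA in both libraries. Of 12 genes known to regulate cancer-testis promoters, 10 were expressed in both, beside 27.9% of all symbols and 57.3% of protein-coding symbols. Of the 10 whose mean reached 1 FPKM, 0 passed a 2-fold difference in either direction, beside 10.4% of all symbols tested higher in PJ and 5.22% lower. ETS1, an ETS family factor gene whose mean fell short of 1 FPKM, was at 0.153 FPKM in PJ (0.0822 to 0.424) and 1.36 FPKM in PF (1.09 to 1.80), a log2 ratio of -1.03. The maintenance DNA methyltransferase gene DNMT1 was at 89.6 FPKM in PJ and 150 FPKM in PF, HDAC2 at 125 FPKM in PJ and 108 FPKM in PF, HDAC1 at 86.1 FPKM in PJ and 141 FPKM in PF, and CTCFL, itself a germ-line gene, at 0.280 FPKM in PJ and 0.478 FPKM in PF.

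The libraries agreed broadly, with a Pearson correlation of 0.958 on the log2(FPKM + 1) scale over 37653 symbols. Absolute depth is unknown because no counts were used. FPKM summed to 3492960 in PJ and 3053270 in PF, but these sums do not measure depth. The highest single symbol stood at 1585410 FPKM in PJ and at 386692 FPKM in PF. Colon epithelial markers were expressed in 6 of 8 cases in both libraries, beside 27.9% of all symbols and 57.3% of protein-coding symbols. Among the 6 was EPCAM at 143 FPKM in PJ and 213 FPKM in PF. VIL1 was not, at 0.314 FPKM in PJ and 0.159 FPKM in PF, nor was CDX1, at 0.00041 FPKM in PJ and 0.00062 FPKM in PF. Of the 6, 2 were at least 2-fold lower in PJ, beside 5.22% of all symbols tested: the keratin gene KRT8 at 280 FPKM in PJ and 760 FPKM in PF, and the E-cadherin gene CDH1 at 1.80 FPKM in PJ and 21.9 FPKM in PF. Of 4 fibroblast markers, 1 was expressed in both, COL1A1 at 2.93 FPKM in PJ and 7.28 FPKM in PF, also at least 2-fold lower in PJ. Of 10 male germ cell markers, 0 were expressed in either library, and they summed to 0.707 FPKM in PJ and 0.395 FPKM in PF. The sperm chromatin genes TNP1, PRM1 and PRM2 were listed at 0 in both.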

How the data were processed

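RNA from the PJ and PF cultures of HCT116 was sequenced as paired-end TruSeq libraries, per the labels' protocols. TopHat2 2.0.8b, TopHat and Cufflinks with hg19 are listed in the submitters' processing notes. Neither the release of Cufflinks nor that of the annotation is stated in the sources used here. Per gene, the authors deposited an FPKM with 95% bounds and a status, per the file headers. Estimates with status FAIL (20 in PJ, 23 in PF, 0 among members) were treated as missing, and rows of a symbol were summed. The log2 ratio is log2((PJ + 1)/(PF + 1)), compared in size at a mean of 1 FPKM or more; with 1 library on each side no p-value was computed. FPKM can be unstable for genes shorter than a fragment. The counting was tested on simulated data. Members were identified in GENCODE v29 by identifier for 67 of 86, and its transcripts gave the unique words and coding alignments. Named genes are members with a mean of 1 FPKM or more, the highest of each subfamily, their copies, the extremes of each list and neighbours within 100 kb; MAGEA1, MAGEA4, MAGEA8, MAGEA11, MAGEB4, MAGEB16, the genes listed at 0 in both libraries and some genes of the lists were named in addition, after their values were seen. The members and lists were chosen with earlier results of these data known. Python 3.11.15, numpy 2.4.6, pandas 2.3.3, scipy 1.17.1 and Biopython 1.88 were used.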

Additional observations from a re-analysis of the deposited data

How the results depend on the processing

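Main counts were recomputed with other thresholds, pseudocounts, filters and scalings, and with GAGE12B left out, a choice made after seeing the data. The 20 members expressed in both libraries became 35 at 0.5 FPKM, 11 at 5 FPKM, 10 when the lower bound had to reach 1 FPKM and 33 when each library was rescaled to a fixed sum over genes of 200 bp or more; in a single library the count was 26 to 31. The 12 expressed members of the GAGE, XAGE, PAGE, SSX, CTAG and CSAG families became 27, 3, 2 and 25 in the same order, and 14 to 22 in a single library, since most lie near 1 FPKM. The 5 type I MAGE genes stayed 5 under each of those settings and were 9 without PF and 5 without PJ. Type II genes numbered 3 or 4, and copy groups 8 to 14. Members at least 2-fold higher in PJ numbered 4 or 5 throughout. The 0 members at least 2-fold lower became 1, GAGE4 (log2 ratio -1.17), at a pseudocount of 0.1. Dividing out the median ratio turned the sign of 4 small uncalled ratios, those of MAGEA2 (-0.02), MAGED1 (-0.14), XAGE1A (-0.06) and XAGE1B (-0.10). Leaving out a library leaves no difference between PJ and PF to compute. No paired analysis was possible because there is 1 group. The number of libraries and the missing counts limit what low values show.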

Other observations

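Cancer-testis genes outside these families were measured as a list too. Of 30 measured genes of this list, 6 were expressed in both libraries, beside 27.9% of all symbols and 57.3% of protein-coding symbols. The other 24 were under 1 FPKM in both, and the 6 were also those whose mean reached 1 FPKM. Of these 6, 2 (LAGE3 and PRAME) stood 2-fold or more above PF in PJ and 0 stood 2-fold or more below, beside 10.4% and 5.22% of all symbols tested. The log2 ratios were 1.04 for LAGE3, 1.14 for PRAME and -0.80 for ATAD2, and these counts were not recomputed with the median ratio divided out. PBK, a mitotic kinase gene, was at 78.5 FPKM in PJ and 73.5 FPKM in PF, and TTK, a spindle checkpoint kinase gene, at 37.4 FPKM in PJ and 36.5 FPKM in PF; both are also used by dividing cells in general. LAGE3, an X-linked relative of CTAG2 that is active in many tissues, was at 57.1 FPKM in PJ (53.8 to 60.4) and 27.3 FPKM in PF (25.2 to 29.4), and ATAD2, a chromatin ATPase gene, at 25.2 FPKM in PJ and 44.7 FPKM in PF. PRAME, a substrate receptor of a ubiquitin ligase and a widely used tumour marker, was at 24.1 FPKM in PJ and 10.4 FPKM in PF. The histone demethylase gene KDM5B was at 2.53 FPKM in PJ and 3.87 FPKM in PF, and the intercellular bridge gene TEX14 lay just under the threshold at 0.936 FPKM in PJ and 0.810 FPKM in PF. CXorf61 was listed at 0 in both. The germ-line piRNA gene PIWIL2 was at 0.413 FPKM in PJ and 0.0534 FPKM in PF, and the CT45 and SPANX genes of the list were all below 1 FPKM.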
